A study of Mus musculus with 2 samples.

Results

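The genes described here are 10 receptors and membrane proteins with which macrophages bind modified lipoproteins, microbes, waste proteins and dying cells: Msr1, Mrc1, Cd36, Marco, Cd163, Cd68, Mertk, Axl, Stab1 and Timd4. They were chosen by name, with earlier results of these data known. Loci assembled from the reads were given to 14870 genes in all, and 9 of the 10 are among them, all but Timd4. The RNA came from wild-type mouse bone marrow cultures, 1 library with macrophage colony-stimulating factor (M-CSF) alone, called M, and 1 with M-CSF plus receptor activator of NF-kappaB ligand (RANKL), called MR. The labels give 2 days with M-CSF followed by 2 days with both factors for osteoclast differentiation. The culture method of the study states a longer RANKL phase, and neither source names the day of harvest for M. The cultures were grown from whole marrow, and the strain, sex and age of the mice and any pooling are not given for these libraries. With 1 library per condition there was no replicate check, so no p-value was computed and every difference below is a difference between these 2 libraries.

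M-CSF drives marrow progenitors into monocytes and macrophages, and RANKL turns these precursors into osteoclasts, the multinucleated cells that resorb bone. Scavenger receptors are grouped by structure and not by ancestry. They take up oxidised or acetylated lipoproteins, bacterial surface molecules, glycoproteins with exposed mannose, and haemoglobin bound to haptoglobin. Efferocytosis is the uptake of apoptotic cells, which display phosphatidylserine on their surface. Tim4 binds this lipid directly, whereas the TAM kinases Mertk and Axl bind it through bridging proteins such as Gas6.

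Levels are given as TPM, a transcript abundance corrected for gene length and library size, summed over the assembled loci of a gene. Differences are log2 ratios of MR to M with 1 added to each TPM. A gene was counted as higher or lower in MR when this ratio passed 1 or -1. Of the 10 genes, 9 reached 1 TPM in either library. All 9 had a log2 ratio below 0, 8 were lower in MR by the threshold, and 0 were higher. Among all 13383 genes tested, 13.0% were lower and 21.1% were higher, and 40.5% had a log2 ratio below 0. The median log2 ratio was -2.27 over the 9 genes and 0.21 over all genes. Among the 8659 genes that reached 10 TPM in either library, 11.2% were lower and 18.4% were higher, against 7 and 0 of the 8 receptor genes that pass the same filter. In bulk RNA, fewer cells of a type and less RNA per cell cannot be told apart.

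In M, the order of the levels was Cd68, Cd36, Stab1, Axl, Msr1, Mertk, Marco, Mrc1 and Cd163, from a TPM of 2607 down to 1.91. The 95% counting intervals of these levels, which leave out any difference between cultures, did not overlap for any neighbours in this order. The order depends on the unit, since by coverage per aligned Gb Marco (32.4) lay above Msr1 (27.2) and Mertk (24.9) in M. In MR, the order was Cd68, Msr1, Axl, Cd36, Stab1, Mertk, Mrc1 and Marco, from 2171 down to 2.88. The intervals of Msr1 (46.9 to 58.4), Axl (47.8 to 54.6) and Cd36 (44.6 to 53.6) overlapped there. By TPM, these genes were thus not distinguishable in level in MR even by counting error. This order depends on the unit too, since by coverage per aligned Gb Axl (22.7), Cd36 (18.3) and Stab1 (17.3) lay above Msr1 (9.09) in MR. The sum over the 10 genes was 4074 TPM in M and 2393 in MR. Cd68 made up 64.0% of this sum in M and 90.7% in MR, and the sum without Cd68 was 1467 in M and 221.9 in MR.

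**Figure D1:**
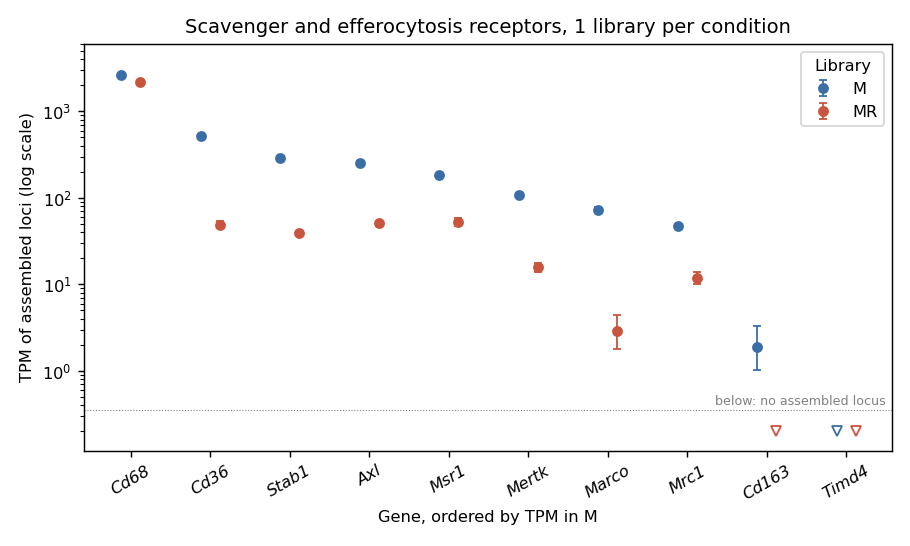
TPM of the 10 genes in the M library (blue) and the MR library (red), on a log axis, ordered by the level in M. Bars are 95% counting intervals from estimated read pairs, and open triangles mark genes without an assembled locus. Cd68 lies at 2607 in M and 2171 in MR, while the next 7 genes lie between 47.9 and 513 in M and between 2.88 and 52.4 in MR.

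Marco and Msr1 are class A scavenger receptors, collagen-like trimers that bind bacteria, particles and modified lipoproteins. Marco, on chromosome 1 from 120474538 to 120505024 of GRCm38, was at 73.0 TPM in M and at 2.88 in MR. It was thus 25.3-fold lower in MR, with a counting interval of 16.5 to 39.0. This interval rests on an estimated 726 read pairs for M and 21 for MR, so that the level in MR is the least precise of the genes measured in both libraries. The log2 ratio of Marco was -4.25, and 40 of the 13383 genes had a lower one. Msr1, on chromosome 8 from 39581685 to 39642673, was at 181 TPM in M and at 52.4 in MR, 3.46-fold lower (3.07 to 3.90), with a log2 ratio of -1.77. By TPM, Msr1 was at 2.49 times the level of Marco in M and at 18.2 times in MR. By coverage these ratios were 0.838 and 7.09, and the listed coverage of Msr1 lies below the coverage that its FPKM corresponds to, at 98.7 against 305 in M.

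Cd36 is a class B receptor for oxidised lipoproteins and long-chain fatty acids, and it also acts with integrins in the uptake of apoptotic cells. It lies on chromosome 5 from 17781690 to 17888801. Its TPM was 513 in M, the second highest of the 10 genes, and 49.0 in MR. It was 10.5-fold lower (9.54 to 11.5), with a log2 ratio of -3.36, and 97 genes had a lower ratio. Adipocytes and platelets also express Cd36. The 6 adipocyte markers searched, Adiponectin (Adipoq) and perilipin (Plin1) among them, had no locus in either library. Of the 8 megakaryocyte and platelet markers, 2 were lower and 1 was higher in MR, against 13.0% and 21.1% of all genes. They summed to 558 TPM in M and 105 in MR. Pf4, which macrophages in culture can also express, held 505 and 38.4 of these sums. The part of platelet cells in the level of Cd36 was not tested.

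Stab1, or stabilin-1, is a large scavenger receptor of sinusoidal endothelium and of macrophages that takes up acetylated lipoproteins and the matrix protein SPARC. It lies on chromosome 14 from 31139013 to 31168641. Its TPM was 290 in M and 39.0 in MR, 7.43-fold lower (7.03 to 7.85), with a log2 ratio of -2.86. The second stabilin gene, Stab2, was at 3.81 TPM in M from 1 locus and at 6.16 in MR as a sum over 4 loci. The MR locus with the most exon bases was at 1.31, which turns the direction, to a log2 ratio of -1.06. Of the 8 endothelial markers, Tek, Lyve1, Plvap and Emcn had no locus in M, and the list summed to 42.7 TPM in M and 56.5 in MR. Among the 5 that passed the filter, 2 were higher in MR and 0 were lower, against 21.1% and 13.0% of all genes. The higher genes were Pecam1, at 2.39 and 6.28, and Plvap, at 3.18 in MR. Kdr accounted for most of the sum, with 35.9 and 42.6. Cdh5 was at 3.66 and 1.77. Pecam1 in MR and Cdh5 in M are sums over several loci. With the locus of most exon bases, Pecam1 was at 2.39 and 3.26, and Cdh5 at 1.89 and 1.77. The part of endothelial cells in the level of Stab1 was not tested.

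Mrc1 is the mannose receptor (CD206), which clears glycoproteins and is a common marker of alternatively activated macrophages. It lies on chromosome 2 from 14229392 to 14332057. Its TPM was 47.9 in M and 11.8 in MR, with a log2 ratio of -1.94. In M the gene was 1 assembled locus, while in MR it was broken into a 5′ locus with a TPM of 5.62 and a 3′ locus with 6.15. Each of these stands for a different stretch of the same transcript, so that the sum counts the gene more than once. With the 3′ locus alone, which holds more exon bases, the log2 ratio was -2.78. As sums over loci, the remaining members of the mannose receptor family stayed within the threshold, namely Mrc2 (3.39 in M and 3.02 in MR), Ly75 (10.6 and 11.5) and Pla2r1 (6.51 and 8.44). These sums are over 4 and 3 loci for Mrc2, 7 and 4 for Ly75, and 1 and 6 for Pla2r1. With the single locus that holds the most exon bases, Pla2r1 was at 6.51 in M and 1.12 in MR and passed the threshold at -1.82, while Mrc2 and Ly75 stayed within the threshold.

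Cd163 takes up haptoglobin-haemoglobin complexes and marks resident and anti-inflammatory macrophages. Its TPM in M was 1.91, the sum of fragments with 0.672 and 1.24 that together hold 36.6% of its exon bases and about 13 read pairs. No locus on its strand was assembled in MR, and it is listed at 0 there. The log2 ratio of -1.54 depends on the number added to each TPM, and in FPKM, where the same 1 was added, it was -0.91 and did not pass the threshold. On the opposite strand within Cd163, loci were assembled at 1.41 TPM in M and at 1.57 in MR, and these overlap 1041 and 324 of its exon bases. Whether strand was kept in the libraries is not stated, so that reads of Cd163 and reads from the opposite strand cannot be told apart. A gene without an assembled locus may still have reads, so no fold is given for Cd163. Without it, 7 of 8 genes were lower, and their median log2 ratio was -2.49.

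Timd4 encodes Tim4, a phosphatidylserine receptor of tissue-resident macrophages. No locus was given to it in either library, and none lay on its opposite strand. Its paralogue Timd2 also had no locus, and Havcr1 (Tim1) was at 0.595 TPM in M and had none in MR. Havcr2 (Tim3), which myeloid cells express, had 31.2 in M and 8.26 in MR and was lower by the threshold.

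Cd68, or macrosialin, is a heavily glycosylated membrane protein of late endosomes and lysosomes that binds oxidised lipoproteins and is used as a marker of macrophages and osteoclasts alike. It lies on chromosome 11 from 69664213 to 69666153. Its TPM was 2607 in M and 2171 in MR, which ranked it 30th of 13333 listed genes in M and 42nd of 13711 in MR. Its log2 ratio was -0.26, with a counting interval of -0.30 to -0.23, and it was the only one of the 9 genes that did not pass the threshold. The structurally related lysosomal proteins Lamp1 and Lamp2 were lower by the threshold, at 1978 in M and 490 in MR for Lamp1 and at 668 and 182 for Lamp2. Lamp3 and Lamp5 had no locus.

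Mertk and Axl are receptor tyrosine kinases of the TAM family. Macrophages use Mertk for steady clearance of apoptotic cells, and Axl is known for its induction in inflamed tissue. Mertk, on chromosome 2 from 128698956 to 128802894, was at 108 TPM in M and at 15.8 in MR, 6.87-fold lower (6.10 to 7.74), with a log2 ratio of -2.70. By coverage per aligned Gb it was 4.27-fold lower, with a log2 ratio of -1.92, and its listed coverage in M was 90.4 against the 182 that its FPKM corresponds to. Axl, on chromosome 7 from 25757273 to 25788705, had 251 in M and 51.1 in MR, 4.91-fold lower (4.57 to 5.27), with a log2 ratio of -2.27. Axl was the more abundant of the pair in both libraries, by 2.31 times in M and 3.24 times in MR by TPM. By coverage it was 4.59 times in M and 3.90 times in MR, so that the direction in which the ratio differs between the libraries depends on the unit. The third TAM receptor, Tyro3, was at 1.19 TPM in M, a sum over 2 loci, and had no locus in MR. As this sum it was lower by the threshold, at a log2 ratio of -1.13. With the locus of most exon bases alone, at 0.595 in M, the log2 ratio was -0.67 and did not pass.

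**Figure D2:**
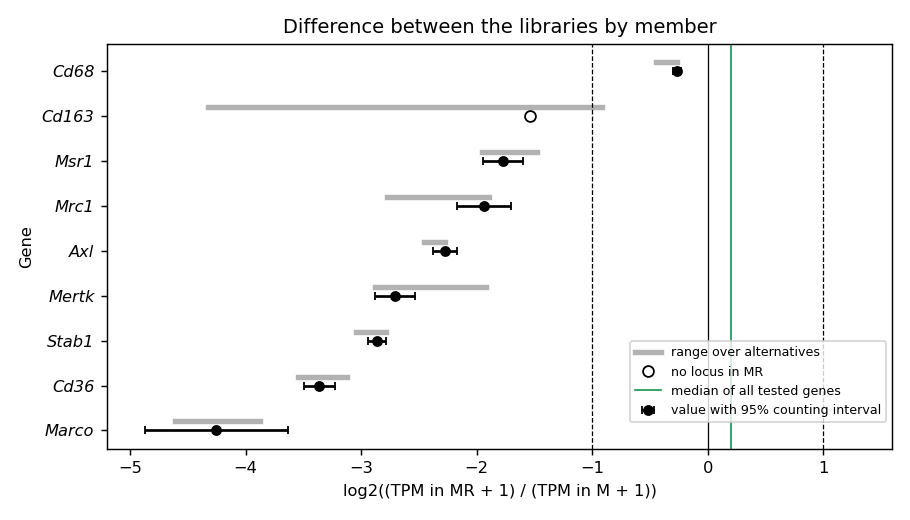
Log2 ratio of MR to M for the 9 genes with a value. Black points have 95% counting intervals, the open point is Cd163, and grey bars span all alternative settings. Dashed lines mark 1 and -1, and the green line is the median of all tested genes, 0.21. Marco has the lowest ratio at -4.25, and Cd68 alone lies inside the threshold at -0.26.

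The Gas6 and protein S (Pros1) genes, whose products bridge TAM receptors to phosphatidylserine, were also measured. Gas6 was lower in MR, at 184 TPM in M and 48.9 in MR, and Pros1 had 13.8 and 7.10 and stayed within the threshold at a log2 ratio of -0.87. The MR value of Pros1 is a sum over 2 loci, and with the locus of most exon bases alone the log2 ratio was -1.94. The proteases that shed Mertk and Axl from the cell surface differed less, with Adam10 at 80.3 in M and 84.9 in MR and Adam17 at 133 and 79.6.

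Of 15 further scavenger receptor genes, 11 passed the filter, 5 were lower, 2 were higher and the median log2 ratio was -0.85. Across all genes tested, 13.0% were lower and 21.1% were higher. Cxcl16, which also acts as a receptor for oxidised lipoprotein, had 126 in M and 28.5 in MR. Scarb2, which carries glucocerebrosidase to lysosomes, had 77.1 and 23.9. The high-density lipoprotein receptor Scarb1 had 69.7 and 55.8 and stayed within the threshold, as did Lrp1, with 250 and 139. Ssc5d was higher at 6.94 (a sum over 4 loci) and 19.7, and Scarf1 was higher at 32.7 and 73.1 from a locus shared with a neighbouring gene. The 5 lower genes include Olr1, at 1.05 in M and without a locus in MR. Its log2 ratio of -1.03 depends on the number added to each TPM. Stab2 stayed within the threshold only as a sum over loci, and with the locus of most exon bases it was at -1.06.

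Among 19 other phosphatidylserine receptors and bridging genes, 17 passed the filter, 10 were lower, 4 were higher and the median was -1.48. The shares over all genes were 13.0% lower and 21.1% higher. The complement C1q chains, which coat apoptotic cells, had the lowest ratios. C1qa was at 1373 TPM in M and at 60.0 in MR, and C1qb had 3516 and 178. The lipid receptor Trem2 had 817 and 140, and Cd300lf had 116 and 8.32. Of the 4 genes higher in MR, integrin beta 3 (Itgb3) had 5.56 in M and 158 in MR, and its partner alpha v (Itgav) had 34.5 and 185. Mfge8, the milk fat globule protein that links phosphatidylserine to this integrin, had 24.5 and 116. Annexin A1 (Anxa1) had 322 and 1067. The alpha v beta 3 integrin is also the main integrin of osteoclasts, and Itgb5, an alternative partner of alpha v, was lower at 109 and 38.6.

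Of 16 genes of the engulfment machinery, 15 passed the filter, 3 were lower, 0 were higher and 12 stayed within the threshold, with a median of -0.31. The 3 lower genes were Dock2 (112 in M and 35.4 in MR), Ptk2 (14.5 and 4.34) and Elmo2 (48.5 and 20.9). The GTPase Rac1 had 290 and 234, and Rab7, which matures phagosomes, had 456 and 667. Of the nuclear receptors and other transcription factors, of which several are known to control scavenger and efferocytosis genes in macrophages, 8 of 9 had a value. Among these, 4 were lower and 1 was higher, with a median of -0.87. Maf had 314 in M and 48.8 in MR, Pparg had 39.6 and 9.67, and Rxra had 42.0 and 12.5. The values of Maf are sums over 2 loci in each library. With the locus of most exon bases, Maf was at 125 and 19.2, with a log2 ratio of -2.64. Rxrb was higher, at 31.8 and 90.6. The LXR alpha gene Nr1h3 was given no value because a different gene's locus covered it in M, and LXR beta (Nr1h2) had 75.0 and 70.1. Over all 71 genes of these 7 lists, 61 passed the filter, 26 were lower and 7 were higher, with a median of -0.73. Beside these counts and those of the single lists stand the shares over all genes, 13.0% lower and 21.1% higher. The lists also count genes with a shared locus, which the shares over all genes leave out.

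**Figure D3:**
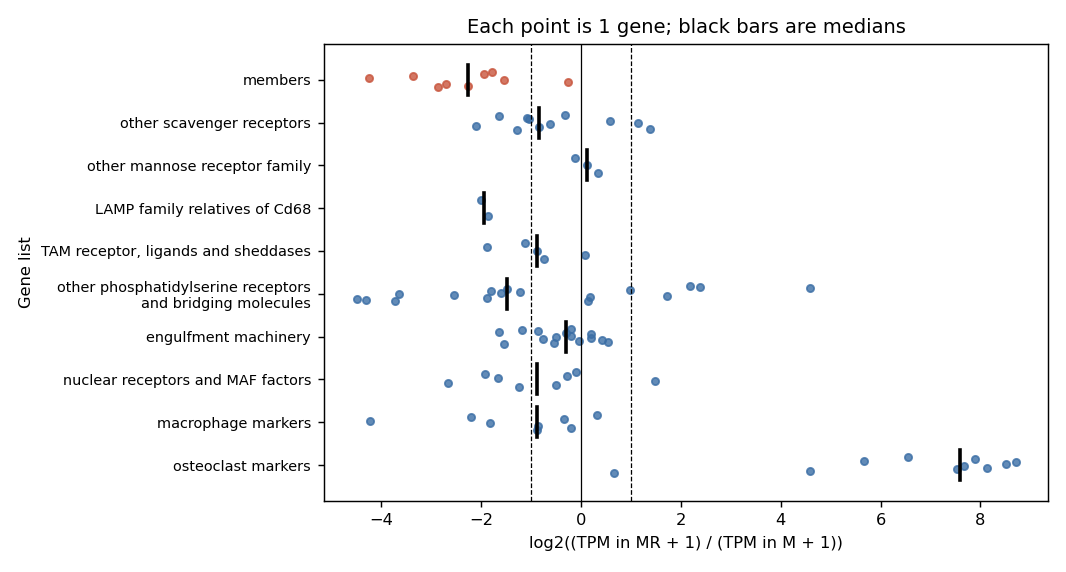
Log2 ratio of MR to M for each gene that passed the filter, by gene list. Each point is 1 gene, black bars are medians and dashed lines mark 1 and -1. The receptors described here (red) have a median of -2.27, engulfment machinery one of -0.31 and osteoclast markers one of 7.60.

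The identity of the cultures was read from marker lists. Of 10 osteoclast markers, 9 were higher in MR and 0 were lower, with Acp5 at 51.9 in M and 4947 in MR and Ctsk at 53.1 and 12867. Of 8 macrophage markers, 3 were lower and 0 were higher. The M-CSF receptor Csf1r had 697 and 872, whereas Adgre1 (F4/80) had 681 and 148 and Fcgr1 had 1158 and 60.5. Lyz2 was also lower, at 16035 in M and 4535 in MR, from a locus shared with a second coding gene. The locus of Itgam, which stayed within the threshold, was shared as well. The 8 neutrophil markers stayed within the threshold, and summed to 1384 TPM in M and 965 in MR. Stromal markers summed to 22.3 and 38.8, dendritic cell markers to 11.1 and 11.95, and lymphoid markers to 14.9 and 8.50. Of 9 housekeeping genes, 0 were lower and 3 were higher, with a median log2 ratio of 0.47. Their log2 ratios ran from -0.91 for Hprt to 1.73 for Sdha. Gapdh, at 40.4 in M and 49.8 in MR, is a sum over 2 loci in M and 3 in MR. For all genes tested, 13.0% were lower, 21.1% were higher and the median was 0.21. The shares of macrophages and osteoclasts in each culture were not measured, and their part in the lower receptor levels was not tested.

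**Figure D4:**
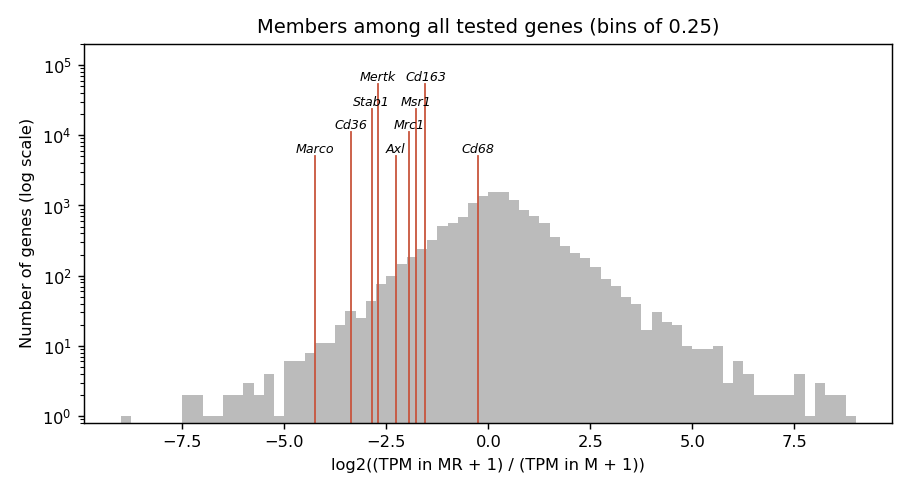
Number of genes by log2 ratio of MR to M, on a log axis, for all 13383 tested genes (grey), with the 9 receptor genes as red lines. All but Cd68 lie below -1, where 13.0% of the genes lie.

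The ends of the assembled loci show which part of each gene they span. The percentages below count annotated exon bases between these ends and are not a measure of read coverage. For Msr1, Cd68 and Mertk the loci held 100% of the exon bases of GENCODE vM21 in both libraries, and for Axl and Stab1 at least 98.5%. Marco had 92.3% in M and 87.8% in MR. Cd36 had 75.6% in M and 59.4% in MR, and its loci began inside the gene, 34539 and 39049 bases from the annotated start. The 5′ ends of the Cd36 locus were 4510 bases apart. The end in MR was 23 bases from an annotated start of a coding Cd36 transcript, and the end in M was 4470 bases from the nearest annotated start. At Cd68 the 5′ ends were 261 bases apart, 317 bases upstream of the annotated start in M and 56 bases in MR. For Stab1, Mertk, Axl, Marco and Msr1 they were 3 to 120 bases apart. The Msr1 loci began 1029 and 1149 bases upstream of the annotated start.

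Promoter sequences from RefSeq, on GRCm38.p6, were matched for 9 of the 10 genes, all but Msr1, and span 250 bases before to 50 bases after the RefSeq start. The following are shown because the 5′ end of the M locus falls inside them. It also falls inside the window of Stab1, where the locus covers only the last 4 bases and which is not shown. Capitals mark the bases that this locus covers. That end lies at position -34 from the RefSeq start for Mrc1, at -60 for Mertk and at 14 for Axl, and the end in MR lies at -43, -34 and 52. The windows are chr2:14229164-14229463 on the plus strand for Mrc1, chr2:128698665-128698964 on the plus strand for Mertk and chr7:25788684-25788983 on the minus strand for Axl, each written 5′ to 3′.
Mrc1: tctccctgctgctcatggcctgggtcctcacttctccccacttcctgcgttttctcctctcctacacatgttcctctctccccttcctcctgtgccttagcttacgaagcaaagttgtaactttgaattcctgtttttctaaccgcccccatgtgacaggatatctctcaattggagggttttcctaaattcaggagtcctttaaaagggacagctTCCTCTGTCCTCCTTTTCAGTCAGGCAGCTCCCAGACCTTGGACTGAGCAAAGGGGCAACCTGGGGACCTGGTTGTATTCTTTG
Mertk: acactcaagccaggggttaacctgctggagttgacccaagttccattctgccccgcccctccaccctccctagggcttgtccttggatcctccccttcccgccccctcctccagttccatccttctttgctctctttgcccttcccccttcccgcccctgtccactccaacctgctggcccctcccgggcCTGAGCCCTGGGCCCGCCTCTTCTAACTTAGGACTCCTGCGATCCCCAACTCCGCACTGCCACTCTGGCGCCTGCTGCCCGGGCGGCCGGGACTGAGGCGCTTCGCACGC
Axl: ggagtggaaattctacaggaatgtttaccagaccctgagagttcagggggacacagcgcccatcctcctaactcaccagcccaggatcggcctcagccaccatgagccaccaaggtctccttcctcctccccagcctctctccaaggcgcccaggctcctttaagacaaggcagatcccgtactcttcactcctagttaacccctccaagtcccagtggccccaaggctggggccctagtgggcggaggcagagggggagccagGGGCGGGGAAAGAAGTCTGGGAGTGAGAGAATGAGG

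The window of Cd68, chr11:69666121-69666420 on the minus strand, is shown because Cd68 kept the highest level of the 9 genes in MR and because it is the only window with a match to the AP-1 site. Capitals mark here the 2 matches, whose first bases lie at -149 and -24.
Cd68: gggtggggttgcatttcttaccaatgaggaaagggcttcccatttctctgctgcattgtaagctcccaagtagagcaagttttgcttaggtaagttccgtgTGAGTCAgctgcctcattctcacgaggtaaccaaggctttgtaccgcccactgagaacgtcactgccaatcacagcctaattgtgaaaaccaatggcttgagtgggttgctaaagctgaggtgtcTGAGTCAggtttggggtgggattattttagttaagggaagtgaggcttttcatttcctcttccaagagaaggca

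A search of both strands found the AP-1 site (TGACTCA or TGAGTCA, which reads as the same site on the other strand) in 1 of 9 windows and in 5.20% of all 32851 RefSeq windows of this length. The nuclear receptor hexamer (AGGTCA or GGGTCA) was in 5 of 9 windows, those of Cd36, Marco, Mertk, Stab1 and Timd4, and in 27.5% of all windows. The NFAT core (TGGAAA) was in 3 of 9, those of Cd36, Cd163 and Axl, and in 21.4% of all. The PU.1 core (GAGGAAGT), the kappaB site, the E-box of MITF/TFE factors (CACGTG), the cyclic AMP response element (TGACGTCA) and the TATA box (TATAAA) were in 0 of 9 windows, against 3.20%, 8.46%, 7.15%, 1.79% and 13.6% of all. No matches of different motifs overlapped. For some genes these windows are not at the start assembled here. The Cd36 loci began at -18366 in M and -13856 in MR from the RefSeq start, so that the Cd36 window lies within the assembled locus. The Cd163 fragments began at 2586 in M, and the Marco loci at 143 in M and 218 in MR. The Cd68 locus began at -300 in M, so that its window with both AP-1 matches lies within that locus. In MR the Cd68 locus began at -39, so that only the match at -24 lies within it. A match describes these letters and is not a measured binding site.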

How the data were processed

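RNA-seq was analysed from 2 libraries, 1 from wild-type bone marrow cells cultured with M-CSF (M) and 1 with M-CSF and RANKL (MR). Paired reads were trimmed by the authors with Trim Galore, aligned to mm10 (GRCm38) with HISAT2 and assembled with StringTie on GENCODE vM27, with versions not given in the sources used here. The deposited coverage is a read depth per base, and the deposited FPKM and TPM are normalised for length and library size, with the TPM scaled to 1000000 over the assembled loci. Entries with gene names carry GRCm39 positions and were not used.

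The 19422 loci in M and 19922 in MR were matched to GENCODE vM21 by exon overlap of at least 50 bases, the gene with the largest overlap being taken. Genes had to lie on the strand of the locus, or on either strand for a locus without one. This placed 95.4% of the TPM in M and 96.9% in MR. TPM was summed per gene, a gene without a locus was set to 0, and log2 ratios used a pseudocount of 1 and genes that reached 1 TPM in either library. A locus was called shared where it held 50% or more of a second coding gene's exon bases, and genome-wide counts left such genes out. The assignment was tested on simulated data.

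Aligned bases, taken as the mode of coverage divided by FPKM, were 3.63 Gb in M and 2.98 Gb in MR. Read pairs were estimated from FPKM, these bases, 300 bases per pair and the shortest coding transcript. They gave 95% Wilson intervals of ratios and exact Poisson intervals of levels, which cover counting error only. With 1 library per condition no test was made. The members and gene lists were chosen with earlier results of these data known, and 1 gene of a list is not reported here. Named genes are the 10 members and, for each list, those with the highest TPM or the largest ratio, with some added for their role after their values were seen. Alternatives covered pseudocount, filter, unit, scaling, locus assignment and threshold. The software was pandas 2.3.3, scipy 1.17.1, numpy 2.4.6 and matplotlib 3.10.9 on Python 3.11.15.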

Additional observations from a re-analysis of the deposited data

Results flagged for a closer look

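The measurements here lie outside the comparison of the 10 genes, in loci assembled on the strand opposite to them, and were singled out because a locus in MR had no overlapping locus in M. Over the 5′ end of Msr1, a plus-strand locus from 39635784 to 39708330 on chromosome 8 had a TPM of 6.56 in MR and overlapped 65 exon bases of Msr1. No gene was given to it. Within Cd163, a minus-strand locus from 124319176 to 124321621 on chromosome 6 had a TPM of 1.57 in MR, and a separate minus-strand locus from 124313420 to 124319156 had 1.41 in M. With 1 library per condition, neither difference has a replicate check, and their source was not tested.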

How the results depend on the processing

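The number of genes higher in MR was 0 under every alternative run, and the number lower was 7 or 8 except with a log2 threshold of 2, where it was 5. The median of -2.27 left the counting interval of its middle gene, Axl, with a pseudocount of 0.1 (-2.77), a minimum of 10 TPM (-2.49), coverage per aligned Gb (-1.92), median-of-ratios scaling (-2.45), TPM without mitochondrial and the 20 most abundant genes (-2.39), only the locus with the most exon bases (-2.70) and at least 50% of the exon bases in loci (-2.49). It was also -2.49 without Cd163, which was added once the values had been seen. Of 96 values of single genes other than Cd163, 81 stayed within the counting interval of their gene, 15 moved further and 0 changed sign. The 81 include values that could not move, since a filter chooses which genes are kept and leaves their log2 ratios as they are. The settings on filter, strand, genes with a locus of their own, at least 50% of the exon bases and any exon base left all these ratios unchanged. Cd163, which has no such interval, ranged from -4.33 to -0.91. Median-of-ratios scaling brought the median of all genes from 0.21 to 0.04 and the share of all genes lower in MR from 13.0% to 15.6%. Coverage moved Mertk to -1.92, and its listed coverage of 90.4 in M lies below the 182 that its FPKM corresponds to, as does that of Msr1, 98.7 against 305. The cause was not tested. No paired analysis was possible because each condition has 1 library, and for the same reason no replicate could be left out.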

Other observations

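On the strand opposite to Axl, a locus from 25771498 to 25772356 on chromosome 7 was at 6.79 TPM in M and at 0.560 in MR, and on the strand opposite to Mertk, one from 128767491 to 128767612 on chromosome 2 was at 4.44 and 2.19. Both overlap 0 exon bases of the receptor gene, and both ends of each coincide with the ends of an entry with a gene name, whose positions refer to another genome build. None of the 38 ends of the 19 loci given to the receptor genes coincides with such an end on its strand.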
